A study of Mus musculus with 6 samples.

Results

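Fatty acids reach a cell in steps, and 10 mouse genes that encode those steps were followed here: the lipoprotein lipase Lpl and its capillary anchor Gpihbp1, the membrane uptake genes Cd36, Slc27a1 and Slc27a4, the cytosolic fatty acid binding protein genes Fabp4 and Fabp5, and the acyl-CoA synthetase genes Acsl1, Acsl4 and Acsl5. They were taken by symbol from a deposited table of 14943 genes, and all 10 were present. RNA was sequenced from the peritoneum of wild-type C57BL/6J male mice aged 8 weeks. The 3 libraries of the encapsulating peritoneal sclerosis (EPS) model came from mice that had daily intraperitoneal peritoneal dialysis solution at 4.25%, 100 mL/kg, together with 0.3 mL of an agent labelled SHS, and lipopolysaccharide at 4 mg/kg once in each week. The 3 control libraries came from mice injected with saline in the same volume. Peritoneum was taken in week 3 in both groups. The EPS mice had all 3 agents, so the effect of any one of them cannot be told apart, and the labels do not say whether a library holds 1 mouse or a pool.

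In fat tissue, lipoprotein lipase is made by adipocytes and carried by GPIHBP1 to the inner face of the capillary, where it splits the triglyceride of circulating lipoproteins. The fatty acids set free enter cells with the help of CD36 and the fatty acid transport proteins, are bound in the cytosol by fatty acid binding proteins, and are joined to coenzyme A by acyl-CoA synthetases, which holds them in the cell and readies them for storage or oxidation. FABP4, FATP1 (Slc27a1) and ACSL1 are the forms best known from adipocytes, while FABP5 and ACSL4 are found in many cell types, macrophages among them.

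Of the 10 genes, 8 fell and 2 rose in EPS. The losses were steepest for Cd36, which was 11.5-fold lower in EPS than in control, and for Fabp4, which was 11.0-fold lower. Gpihbp1, Slc27a1, Lpl and Acsl1 were 6.40 to 8.73-fold lower. Fabp5 and Slc27a4 fell less, by 2.29 and 1.66-fold. Acsl4 and Acsl5 were 1.85 and 1.5-fold higher. The comparison used edgeR's quasi-likelihood test on the counts with TMM scaling, with a call where the adjusted p, over all 13980 genes tested, was under 0.05. Calls in either direction took in 59.6% of all genes tested, 30.4% lower and 29.2% higher, so that a call alone sets no gene apart. How many of all genes have groups that do not overlap was not counted, so a lack of overlap sets none apart either. The median log2 fold change was -2.78 over the 10 members and -0.02 over all genes tested.

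**Figure D1:**
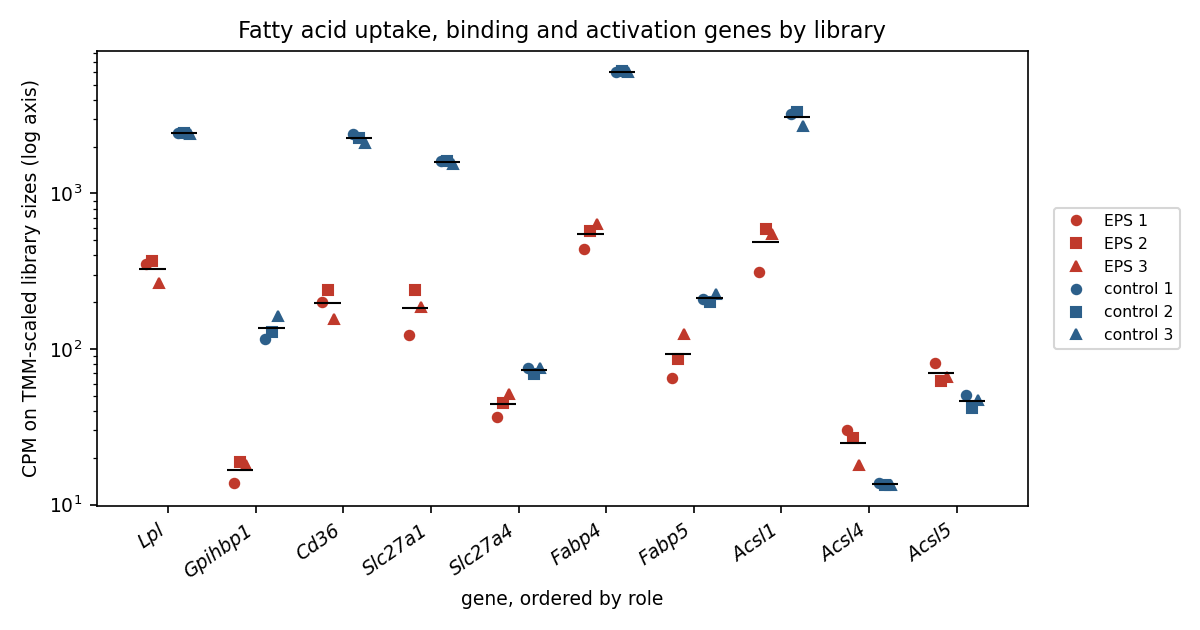
CPM, the count scaled to the TMM-adjusted library size (log axis), of each of the 10 genes in the 3 EPS libraries (red, left) and the 3 control libraries (blue, right), with a bar at each group's mean. In none of the 10 genes do the groups overlap, and Acsl4 and Acsl5 are the 2 genes with the EPS libraries on top. The share of all genes tested whose groups do not overlap was not computed.

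Together the 10 genes took 0.155%, 0.288% and 0.264% of all counts in EPS 1 to 3, against 1.42%, 1.39% and 1.34% in controls 1 to 3, with exact 95% intervals, for counting error only, from 0.153 to 0.157% in EPS 1 and from 1.41 to 1.42% in control 1. The EPS libraries held 15419232 to 16651797 counts and the control libraries 16092608 to 17684229. The EPS libraries were not alike: genes of the exocrine pancreas summed to 169547 CPM in EPS 1, 189 in EPS 2 and 571 in EPS 3, against 4299.6, 4044 and 375 CPM in controls 1 to 3. Without EPS 1 all 10 calls were kept, with log2 fold changes of -3.47 for Cd36, -3.25 for Fabp4, -2.37 for Acsl1, -0.92 for Fabp5, -0.54 for Slc27a4, 0.80 for Acsl4 and 0.53 for Acsl5. Controls 1 and 2 were closer to each other (mean chi-square per gene 4.41) than either was to control 3 (15.9 and 16.4), and the 10 calls were kept with those 2 averaged into 1 sample.

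Transcripts of both genes for the capture of fatty acids from lipoproteins fell. Lpl (chromosome 8, 68880491 to 68907448, GRCm38) had 352, 369 and 267 CPM in EPS 1 to 3, against 2445, 2461 and 2399 CPM in controls 1 to 3. Every EPS library lay far below every control library, and the log2 fold change was -2.89 ± 0.16 (SE; adjusted p = 4.65e-06). Gpihbp1, which capillary endothelial cells express (chromosome 15, 75596628 to 75599481), had 13.7, 18.7 and 18 CPM in EPS and 116, 129 and 164 CPM in controls. Its groups did not overlap either, and its log2 fold change was -3.02 ± 0.18 (adjusted p = 5.83e-06). Set against each other, the ratio of Gpihbp1 to Lpl counts per kilobase was 0.160, 0.208 and 0.276 in EPS and 0.195, 0.216 and 0.280 in controls. These ranges overlap, the log2 ratio differed by -0.12 between the groups, and an exact two-sided permutation test gave p = 0.7. In bulk tissue, fewer cells of a type and less RNA per cell cannot be told apart, here and in every result that follows.

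At the cell membrane, Cd36 and Slc27a1 fell together and Slc27a4 fell much less. Cd36, the scavenger receptor that binds long-chain fatty acids (chromosome 5, 17781690 to 17888801), was measured at 202, 240.0 and 155 CPM in the EPS libraries and at 2430.2, 2281 and 2127 CPM in the controls. Its log2 fold change of -3.52 ± 0.19 (adjusted p = 4.3e-06) was the lowest of the 10, and 0.866% of all genes tested had a lower one. Slc27a1, which encodes the insulin-responsive transporter FATP1 (chromosome 8, 71568882 to 71587302), measured 123, 239 and 187 CPM in EPS and 1611, 1619 and 1557 CPM in controls (-3.13 ± 0.24, adjusted p = 2.11e-05). EPS 1 had the least and EPS 2 the most, while the controls lay close together. Slc27a4, which encodes FATP4 (chromosome 2, 29802634 to 29817522), measured 36.5, 44.7 and 51.4 CPM in EPS and 75.8, 69.0 and 75.9 CPM in controls. The groups did not overlap, but the gap was small (-0.73 ± 0.13, adjusted p = 0.00189), and with library totals in place of TMM the call was lost (-0.29, adjusted p = 0.298).

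Within each library, the ratio of Slc27a4 to Slc27a1 counts per kilobase was 0.394, 0.248 and 0.364 in EPS, against 0.0622, 0.0564 and 0.0645 in controls, 5.39-fold higher in EPS. The ratio of Cd36 to Lpl was lower in EPS, with 1.67, 1.90 and 1.69 in EPS and 2.90, 2.71 and 2.59 in controls. Such ratios do not depend on how libraries are scaled to each other. For both ratios the groups were fully apart, and the exact two-sided permutation test gave p = 0.1, the smallest that 3 libraries against 3 allow (0.12 after adjustment over the 6 ratios tested). The size of every ratio per kilobase depends on the gene lengths used, but its fold difference between the groups does not. With the principal transcript lengths used below, Cd36 was under Lpl in EPS (means of 58.5 and 80.0 CPM per kilobase). It was above Lpl in controls (671 and 592).

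The bases before the Cd36 start are shown because they hold the letters AGGTCA, a core element of nuclear receptor sites, found in none of the other promoter windows read here. Windows of 250 bases before an annotated start were read from RefSeq promoters of GRCm38.p6 for 6 of the 10 genes, 9 windows in all. The Cd36 window (chr5:17835897-17836146, minus strand) lies in an intron of the longer gene body, before an internal start. Capitals mark GGGCGG, the GC box, or AGGTCA, on either strand, so that TGACCT is AGGTCA read on the other strand. GGGCGG occurs at 2 places, 109 and 93 bases before the start.
Cd36: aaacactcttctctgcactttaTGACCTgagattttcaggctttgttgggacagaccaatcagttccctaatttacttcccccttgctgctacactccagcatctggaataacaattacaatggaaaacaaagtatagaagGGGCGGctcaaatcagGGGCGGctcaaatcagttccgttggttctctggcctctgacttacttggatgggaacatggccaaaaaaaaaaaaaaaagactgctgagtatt
AGGTCA occurs in 14% of all 32851 such windows and GGGCGG in 32.7%, and a match of letters says nothing of binding.

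Both cytosolic binding protein genes fell, Fabp4 by 11.0-fold and Fabp5 by 2.29-fold. Fabp4, the major binding protein of adipocytes (chromosome 3, 10204088 to 10208576), had 439, 576 and 634 CPM in EPS 1 to 3, against 6065, 6092 and 6022 CPM in controls. The controls spread by 0.584% around their mean of 6059.5 ± 35.4 CPM (SD, n = 3), the EPS libraries by 18.2% around 549.8 ± 100.1 CPM, and the log2 fold change was -3.46 ± 0.18 (adjusted p = 3.35e-06). Fabp5, the epidermal form that macrophages and endothelial cells also express (chromosome 3, 10012548 to 10016607), had 65.2, 85.9 and 126 CPM in EPS and 209, 199.5 and 225 CPM in controls. Every EPS library lay under every control library (-1.19 ± 0.22, adjusted p = 0.00254), with EPS 3 the nearest to them. With library totals in place of TMM the Fabp5 call was narrowly lost (-0.73, adjusted p = 0.0543). Fabp5 has processed pseudogenes of near-identical sequence, and the labels do not say what was done with reads of more than 1 match, so its values are uncertain.

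Per kilobase, Fabp5 stood at 0.187, 0.188 and 0.250 of Fabp4 in EPS 1 to 3, against 0.0434, 0.0412 and 0.0471 in controls. The ratio was thus 4.70-fold higher in EPS, with the groups apart (exact two-sided permutation p = 0.1, the smallest possible; 0.12 adjusted over the 6 ratios).

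The synthetases moved in opposite directions. Acsl1, the main synthetase of adipocytes (chromosome 8, 46471037 to 46536051), had 311, 590.2 and 551 CPM in EPS 1 to 3 and 3264, 3323 and 2709 CPM in controls (-2.68 ± 0.26, adjusted p = 5.99e-05). EPS 1 was the lowest of the 6 libraries. Acsl4, whose enzyme prefers arachidonic acid (chromosome X, 142317993 to 142390535), had 30.3, 26.8 and 17.9 CPM in EPS and 13.9, 13.3 and 13.3 CPM in controls. The controls were almost equal and the EPS libraries all higher, EPS 1 the most (0.89 ± 0.20, adjusted p = 0.00564). Acsl5, an enzyme known from intestine and liver (chromosome 19, 55251938 to 55297720), had 81.6, 61.9 and 65.8 CPM in EPS and 50.6, 41.5 and 47.2 CPM in controls (0.59 ± 0.13, adjusted p = 0.00578). Its groups did not overlap, with EPS 2 and control 1 the nearest pair. No strand-marking step is described for these libraries, so reads from overlapping exons of opposite strands may not have been told apart. Acsl1 shares 1039 exonic bases with Gm45244, which is not analysed here, and Acsl5 shares 404 with Zdhhc6. Zdhhc6 was at 48.1 ± 7.41 CPM in EPS and 42.2 ± 2.19 CPM in controls (SD, n = 3 each; 0.19 ± 0.13, adjusted p = 0.237).

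Acsl4 thus stood at 0.189, 0.0882 and 0.0629 of Acsl1 per kilobase in EPS 1 to 3, against 0.00823, 0.00775 and 0.00952 in controls, 12-fold higher. Acsl5 stood at 0.565, 0.226 and 0.257 of Acsl1 in EPS and at 0.0334, 0.0269 and 0.0375 in controls, 9.92-fold higher. In both ratios EPS 1 was the highest and all EPS libraries lay above all controls (exact two-sided permutation p = 0.1 each, the smallest possible; 0.12 adjusted over the 6 ratios). Acsl1 remained the most abundant of the 3 synthetases in all 6 libraries by either measure of length used below.

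**Figure D2:**
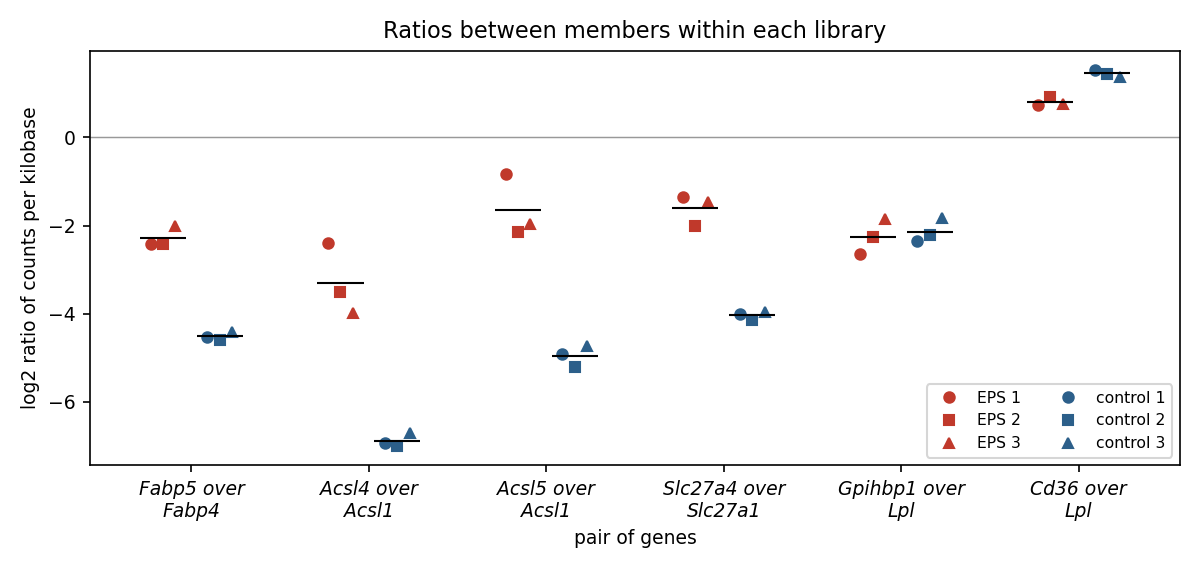
Log2 ratio of counts per kilobase between 2 genes in each EPS library (red, left) and control library (blue, right), with a bar at the group mean. Fabp5 over Fabp4, Acsl4 and Acsl5 over Acsl1 and Slc27a4 over Slc27a1 are higher in all EPS libraries, Cd36 over Lpl is lower in all of them, and Gpihbp1 over Lpl overlaps.

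The 3 synthetases are those whose directions part, so the bases before their starts are shown side by side. Capitals again mark GGGCGG or AGGTCA on either strand. The first Acsl1 start (chr8:46470787-46471036, plus strand), its second start in an intron (chr8:46490716-46490965, plus strand), Acsl4 (chrX:142390536-142390785, minus strand) and Acsl5 (chr19:55253119-55253368, plus strand, intronic in the longer gene body) read as follows, each 5′ to 3′ up to the base before the start.
Acsl1, first start: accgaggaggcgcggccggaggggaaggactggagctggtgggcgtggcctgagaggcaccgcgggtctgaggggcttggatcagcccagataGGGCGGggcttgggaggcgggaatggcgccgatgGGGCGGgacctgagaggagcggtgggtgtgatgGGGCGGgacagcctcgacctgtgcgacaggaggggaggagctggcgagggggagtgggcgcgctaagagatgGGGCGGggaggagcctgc
Acsl1, second start: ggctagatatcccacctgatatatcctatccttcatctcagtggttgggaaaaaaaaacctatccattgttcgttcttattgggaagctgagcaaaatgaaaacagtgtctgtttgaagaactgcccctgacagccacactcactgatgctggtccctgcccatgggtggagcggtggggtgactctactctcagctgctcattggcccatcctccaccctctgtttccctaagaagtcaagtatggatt
Acsl4: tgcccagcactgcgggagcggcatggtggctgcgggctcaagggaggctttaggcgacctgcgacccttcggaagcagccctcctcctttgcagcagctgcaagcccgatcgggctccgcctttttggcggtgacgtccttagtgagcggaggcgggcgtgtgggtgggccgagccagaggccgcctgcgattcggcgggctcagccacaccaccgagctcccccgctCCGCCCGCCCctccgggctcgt
Acsl5: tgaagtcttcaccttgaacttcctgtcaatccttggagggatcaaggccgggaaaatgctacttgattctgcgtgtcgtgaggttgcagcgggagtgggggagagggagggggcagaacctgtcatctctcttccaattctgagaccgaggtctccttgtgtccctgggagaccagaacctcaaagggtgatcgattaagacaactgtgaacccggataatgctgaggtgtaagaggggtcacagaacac
The first Acsl1 window holds GGGCGG at 4 places, and 4.09% of all windows hold at least as many, and the Acsl4 window holds it at 2 overlapping places on the other strand. GC content was 72% and 70.8% in these, 48.4% before the second Acsl1 start and 52.8% before Acsl5, against a median of 52.4% over all windows. The letters TATAAA, found in 12.4% of all windows, are in none of the 9 windows, and CCAAT, found in 33.8%, is in 5, the second Acsl1 window and the Acsl5 window among them. Which start was used cannot be read from counts per gene.

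The order of abundance of the 10 genes by group mean, measured as CPM per kilobase of exon union, kept Fabp4 first, then Cd36 and Acsl1, and Acsl4 last in both groups. Fabp4 stood at 122 ± 22.3 in EPS and 1349.9 ± 7.89 in controls (SD, n = 3 each). In EPS, Cd36, Acsl1, Lpl, Slc27a1 and Fabp5 followed in that order, each overlapping its neighbour in range, whereas in controls Cd36 was clear of Acsl1, and Lpl of Fabp5. Acsl1 and Slc27a1 overlapped in controls, as did Fabp5 and Gpihbp1. At the low end, Gpihbp1 and Acsl4 overlapped in EPS, with Acsl4 the higher in EPS 1 (5.60 against 5.37). Acsl5 was ranked 7 in EPS, above Slc27a4 and Gpihbp1, and ranked 9 in controls, below both. The annotation lists transcripts that retain introns, which lengthen the exon union: it spans 4489 bases for Fabp4, whose principal transcript has 896. With principal transcript lengths, a choice made after seeing the data, Fabp4 was still first and Acsl4 last in both groups, with Acsl1 second, while Fabp5 was ranked 3 in EPS and 6 in controls and Cd36 6 in EPS and 3 in controls. Rankings between these places therefore depend on the length used, and differences between the groups in a gene do not.

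Related genes of the same pathway, in 5 lists, fell more often than they rose. Of 81 genes listed, 64 were in the table and 59 were tested, and 38 of these were lower in EPS, 8 higher and 13 not called, with a median log2 fold change of -0.95. Of all genes tested, 30.4% were lower and 29.2% higher, with a median log2 fold change of -0.02. These shares belong beside each list below. With library totals in place of TMM, 25 related genes were lower and 11 higher. The genes around lipoprotein lipase numbered 12 lower and 2 higher of 18. Angptl4, a secreted inhibitor of the lipase, was at 58.7 ± 6.55 CPM in EPS and 417 ± 15.0 CPM in controls, 7.10-fold lower. Pcsk6, a proprotein convertase, was 9.35-fold lower, Apoc3, an apolipoprotein that restrains the lipase, 9.22-fold lower, and the endothelial lipase gene Lipg 2.77-fold lower. Named after their values were seen, the 2 that rose were Sdc1, a heparan sulfate proteoglycan (42.4 ± 1.11 CPM in EPS, 30.7 ± 2.50 in controls), and the hepatic lipase gene Lipc (1.74 ± 0.55 CPM in EPS, 0.324 ± 0.278 in controls), whose call was lost without control 2 (adjusted p = 0.0504) and whose log2 fold change of 2.42 was 3.33 without control 1.

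Among other small lipid chaperones, 2 of 4 tested genes fell. The retinol binding protein genes Rbp4 and Rbp7 were 26.7 and 13.9-fold lower in EPS, with Rbp4 at 7.0, 20.2 and 19.1 CPM in EPS 1 to 3 against 406, 402 and 432 CPM in controls. Fabp1, Fabp2 and Fabp3, the liver, intestinal and heart forms, were below edgeR's filter on low counts, at means of 0.0495, 0 and 0.894 CPM in EPS and 0.251, 0.531 and 0.405 CPM in controls. Of these 3, DESeq2, run without that filter, called Fabp2 lower (adjusted p = 0.0290), and edgeR without the filter called none (adjusted p = 0.0511 for Fabp2). Fabp2 had 14, 9 and 0 counts in controls 1 to 3 and 0 in every EPS library, so its groups overlapped.

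Of 11 genes tested for other transport proteins and membrane uptake, 7 fell and 2 rose. The caveolar coat genes Cav1, Cav2 and Cavin1 were 4.58, 5.18 and 4.54-fold lower, and Tcf15, a transcription factor of capillary endothelium that drives fatty acid uptake genes in mouse heart, was 8.08-fold lower. The 2 that rose, named after their values were seen, were Got2, a mitochondrial aminotransferase also described as a membrane fatty acid binding protein (93.3 ± 4.64 CPM in EPS, 52.7 ± 1.80 in controls), and the lysolipid transporter gene Mfsd2a (1.76 ± 0.30 CPM in EPS, 0.249 ± 0.0456 in controls).

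All 11 other acyl-CoA synthetase genes tested were called, 9 lower and 2 higher, where 59.6% of all genes tested were called in either direction. Acsm5 and Acsm3, of the medium-chain family, were 19.9 and 9.94-fold lower, the mitochondrial Acss3 9.03-fold lower, and Acsf3, a malonyl-CoA synthetase, 2.59-fold lower. The 2 that rose, named after their values were seen, were the mitochondrial acetyl-CoA synthetase gene Acss1 (31.6 ± 1.25 CPM in EPS, 18.9 ± 0.957 in controls) and Acsbg1 (5.95 ± 2.22 CPM in EPS, 2.70 ± 1.0 in controls, the groups overlapping). The Acsbg1 call was lost under 6 of 14 alternatives: without EPS 2 (adjusted p = 0.0932), without EPS 3 (0.0879), without control 2 (0.118), without control 3 (0.116), with the replicate number as a block (0.0791) and with controls 1 and 2 averaged (0.0553). Genes that bind or cleave acyl-CoA numbered 8 lower and 1 higher of 15, beside 30.4% lower and 29.2% higher of all genes tested. Dbi, the acyl-CoA binding protein, was at 103 ± 15.5 CPM in EPS and 909.8 ± 48.4 CPM in controls, 8.85-fold lower, and Acbd4 was 7.07-fold lower. The thioesterase genes Acot4 and Acot13 were 5.57 and 2.40-fold lower. Acot1, which rose 2.63-fold and was named after its values were seen, is nearly identical to Acot2, so the split of reads between them is uncertain. Acot2, also named after its values were seen, was called the other way, 2.01-fold lower (8.35 ± 1.40 CPM in EPS, 16.8 ± 2.28 in controls).

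**Figure D3:**
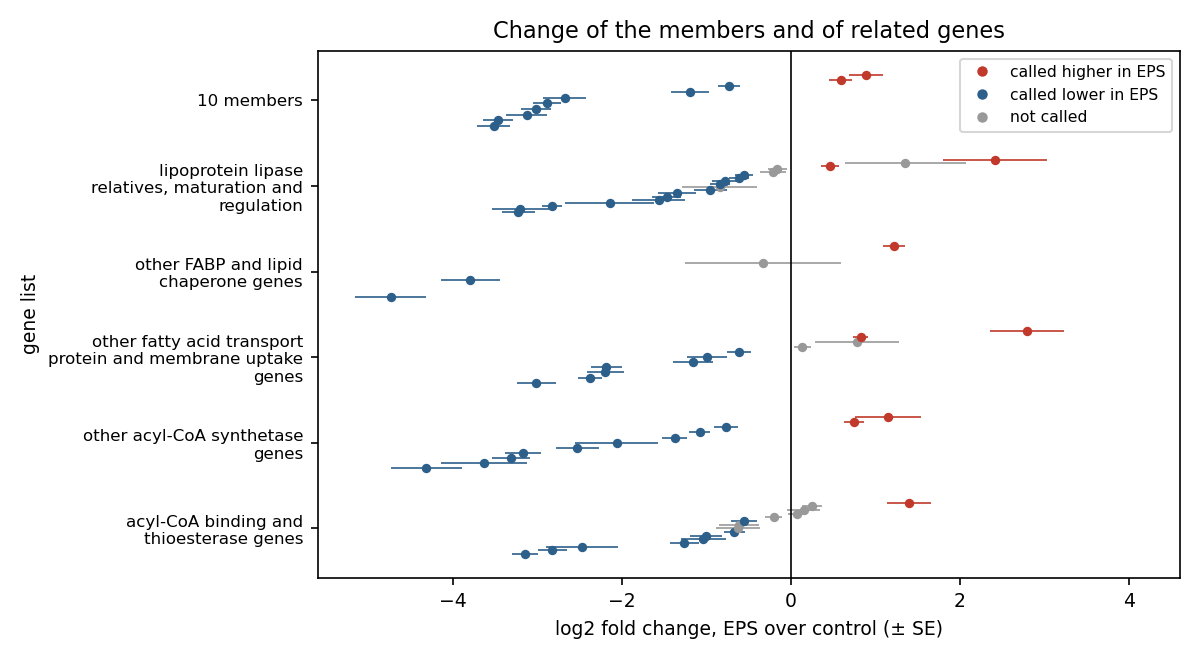
Log2 fold change of EPS over control, with its standard error, for the 10 genes and for the tested genes of 5 related lists. Red points were called higher in EPS, blue points lower, and grey points were not called. Blue are 8 of the 10 members and 38 of the 59 related genes, where 30.4% of all genes tested were called lower.

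Markers of the cells that carry these genes moved as well. All 12 adipocyte markers fell, among them the complement factor gene Cfd and Pnpla2, a triglyceride lipase, and their summed level was 2472 to 4300.5 CPM in EPS and 30067 to 30969.5 CPM in controls. All 12 capillary endothelial markers fell, Pecam1 and Cdh5 among them, with a sum of 1030.0 to 1295 CPM in EPS and 2957 to 3004 CPM in controls. Of 12 macrophage markers, 11 rose and none fell, Lyz2 and Csf1r among the risers, with a sum of 4097 to 4794 CPM in EPS and 792 to 906 CPM in controls. No adipocyte, endothelial or macrophage marker was at 0 in either group. All 10 neutrophil markers rose (9 were called by limma-voom), with a sum of 605 to 2054 CPM in EPS and 5.95 to 7.87 CPM in controls, where Ly6g had no count. The part of these shifts in the changes of the 10 genes was not tested.

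Set against the adipocyte marker sum of its own library, a member that fell with the adipocyte markers shows a difference near 0. On the log2 scale, the EPS mean minus the control mean of this ratio was 0.21 for Lpl, 0.09 for Gpihbp1, -0.43 for Cd36, -0.07 for Slc27a1, -0.37 for Fabp4 and 0.39 for Acsl1. For Lpl, Gpihbp1, Cd36 and Slc27a1 the groups overlapped, and for Fabp4 and Acsl1 they did not. The other 4 members stood far higher against the adipocyte sum in EPS: Fabp5 by 1.87, Slc27a4 by 2.37, Acsl5 by 3.70 and Acsl4 by 3.97, each with groups that did not overlap. Without EPS 1, whose adipocyte sum was the lowest, the differences were -0.10 for Lpl and -0.02 for Gpihbp1, the other side of 0, and -0.71 for Cd36. These are descriptions without a test, over 3 libraries a group. They also depend on the markers summed. Cfd, the marker of highest mean CPM (1630 in EPS, 7513 in controls), had a log2 fold change of -2.20, against a median of -3.41 over the 12. A sum without Cfd was not computed, so the side of 0 on which a small difference lies is uncertain.

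Set against the endothelial marker sum, the order was the same by construction, but the zero point differed. Gpihbp1 differed by -1.69 relative to that sum, which is 3.23-fold lower in EPS, with -6.23, -6.08 and -6.17 in EPS 1 to 3 against -4.67, -4.53 and -4.20 in controls on the log2 scale. Fabp5 differed by 0.08, with overlapping groups, and Slc27a4 by 0.58. These differences depend on the markers summed, which did not fall alike. Pecam1, the one of highest mean CPM, was 1.78-fold lower and Rgcc 9.80-fold lower, with a median log2 fold change of -1.37 over the 12. Gpihbp1, at -3.02, fell more than that median but not more than Rgcc, at -3.29. Against the macrophage sum, all 10 members were lower in EPS, with log2 differences of -1.51 for Acsl4, -1.79 for Acsl5, -3.12 for Slc27a4 and -3.62 for Fabp5. Acsl4, Acsl5 and Slc27a4 thus stood between the sums, without overlap of the groups: higher in EPS against adipocyte and endothelial markers, and lower against macrophage markers. This too is by construction. The adipocyte and endothelial sums fell and the macrophage sum rose, so any gene with a fold change between theirs stands there. The place is therefore not particular to these 3 genes.

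**Figure D4:**
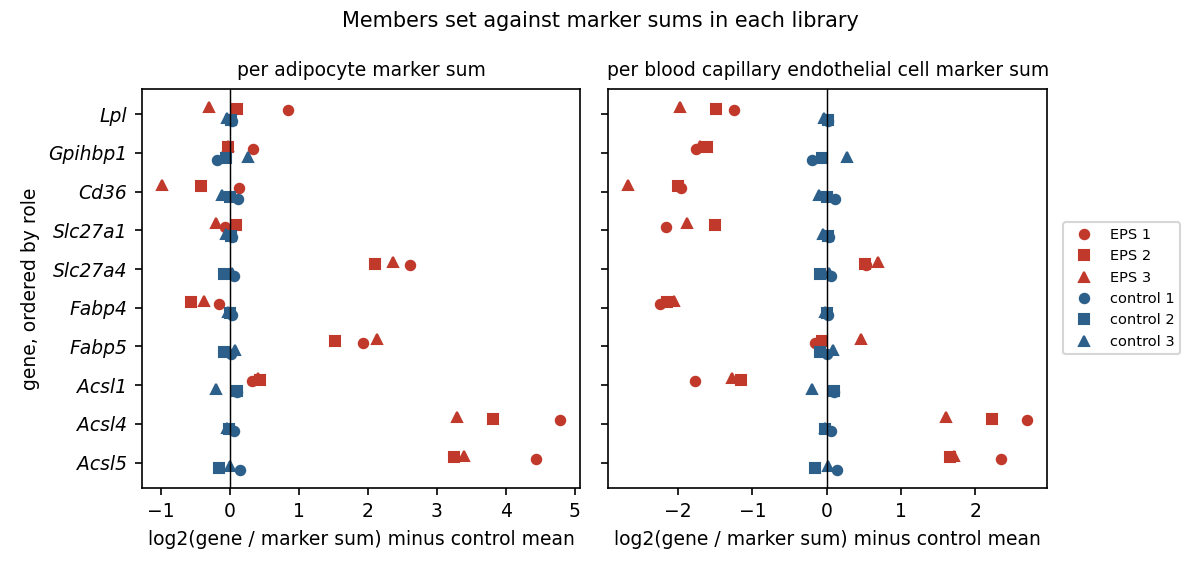
Log2 of each gene's counts over the summed counts of 12 adipocyte markers (left panel) or 12 capillary endothelial markers (right panel) in the same library, minus the control mean. Red points are the 3 EPS libraries, drawn above the 3 blue control libraries; Fabp5, Slc27a4, Acsl4 and Acsl5 lie to the right of 0 in the left panel, at 1.87 to 3.97 on average.

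Markers of other cells the tissue could hold were read in the same way. No exocrine pancreas marker of 12 was called by edgeR, none had an unadjusted p under 0.05, and DESeq2 and limma-voom called none. Their sum was 169547, 189 and 571 CPM in EPS 1 to 3 and 4299.6, 4044 and 375 CPM in controls. With so wide a spread within the groups, the lack of a call does not show equal levels. No mesothelial marker of 10 was called by edgeR and none had an unadjusted p under 0.05, while DESeq2 called 2 higher and limma-voom 1 lower. The mesothelial sum was 394.8, 286 and 59.9 CPM in EPS 1 to 3 and 232, 235 and 152 CPM in controls, and no mesothelial marker was at 0 in either group. By edgeR, skeletal muscle markers split into 3 higher and 2 lower of 9, against 2 higher and 1 lower by DESeq2 and 2 higher and 2 lower by limma-voom (sums of 10.3 to 75.7 CPM in EPS and 36.9 to 54.6 in controls). Squamous and intestinal epithelial markers split into 1 higher and 1 lower by each of these tools, of 5 tested by edgeR (16.3 to 59.3 CPM in EPS and 29.0 to 29.8 in controls). By edgeR, Epcam was 39.4-fold higher in EPS and Lgals4 3.78-fold lower. Cdx2, an intestinal factor, had no count in EPS and only 2, 0 and 0 counts in controls 1 to 3. The 2 liver markers that edgeR tested fell, and DESeq2 called 3 lower, Apoa1 among them (sums of 0.694 to 6.79 CPM in EPS and 6.55 to 11.2 in controls), with Apoa1 at 0 in EPS. The milk and secretory epithelial genes Csn2 and Elf5 were below edgeR's filter, with a summed 0.485 to 12.5 CPM in EPS and no count in controls. Elf5 had 1, 230 and 0 counts in EPS 1 to 3, nearly all of them in EPS 2. Csn2, with 6, 37 and 35 counts in EPS 1 to 3, was called higher by DESeq2 (adjusted p = 4.11e-05) and by edgeR without the filter (adjusted p = 0.00520).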

How the data were processed

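The authors deposited raw counts of reads per gene symbol for 6 libraries, per the file's whole-number values. The genome build was mm10, per the submitters' processing notes; the aligner, counter and gene annotation were not given in the sources used here. Per the labels' protocols, polyadenylated RNA was sequenced, and no step that marks strand is described. Whether reads of overlapping genes on opposite strands were told apart is therefore not known. Genes were kept by filterByExpr (13980 tested, 963 not), scaled by TMM, and tested for EPS over control with edgeR (glmQLFit, robust, then glmQLFTest, no covariates), with Benjamini-Hochberg adjustment over all genes tested (edgeR 4.0.16, R 4.3.3). The SE of a log2 fold change is the estimate over the square root of F, and the ± of a CPM is the SD of 3 libraries. P-values measure the spread between these libraries. Gene coordinates and lengths come from GENCODE vM21 (GRCm38). Alternatives were RLE factors, upper-quartile factors, library totals, no filter, DESeq2 1.42.0, limma-voom (limma 3.58.1), a replicate block, each library left out, and controls 1 and 2 averaged. Related genes named are up to 4 called genes of lowest p in each list, and others are marked as named after their values were seen; 1 related gene is not reported here. Members, related genes and the 10 marker lists were chosen with earlier results of these data known. Ratios used the counts as deposited, with 0.5 added to each count as an alternative. Intervals cover counting error only.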

Additional observations from a re-analysis of the deposited data

How the results depend on the processing

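All 10 member genes kept their direction under the 14 alternatives run, and all kept their call under 13 of them. The exception was library totals in place of TMM, which shifted the median log2 fold change of all genes by 0.42: Fabp5 (-0.73, adjusted p = 0.0543) and Slc27a4 (-0.29, adjusted p = 0.298) were no longer called, which left 6 members lower and 2 higher. Under that scaling, 25 related genes and 2182 of all genes were lower, in place of 38 and 4245, and 72.2% of calls were upward, in place of 49.1%. Over the libraries left out in turn, 6 to 8 related genes were higher and 37 to 39 lower. The log2 fold changes then ranged from -3.67 to -3.37 for Cd36, from -3.58 to -3.25 for Fabp4, from 0.80 to 1.08 for Acsl4 and from 0.51 to 0.67 for Acsl5. Among the ratios, 5 kept their direction in every alternative run, and Gpihbp1 over Lpl, whose groups overlap, had a log2 difference of -0.12, which was 0.076 without EPS 1 and 0.031 without control 3, with a range of -0.32 to 0.08 over the libraries left out. EPS and control libraries share replicate numbers only: deviations from the group means correlated at 0.28, -0.14 and 0.29 for numbers 1, 2 and 3, and EPS 2 correlated best with control 3. With the replicate number as a block, 2 members were higher and 8 lower, as without it, and 7 related genes were higher. With 3 libraries a group, an exact test of a single ratio cannot pass 0.05.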
